A study of Arabidopsis thaliana with 12 samples.

Results

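The plastid-encoded RNA polymerase of Arabidopsis is built from 4 proteins encoded in the chloroplast genome, and their transcripts are described here. The members are the probe sets of rpoA, rpoB, rpoC1 and rpoC2, found by gene symbol without regard to case in the platform's annotation. Each gene had exactly 1 probe set (244978_at, 244999_at, 244998_at and 244997_at in that order), so the 4 members are 4 of 13350 genes with a probe set of their own and 4 of 22746 probe sets that were not Affymetrix controls. Transcript levels were measured on 12 arrays in whole seedlings of wild-type Columbia, a standard laboratory ecotype. In all groups seeds in liquid MS medium, in plates covered with foil, were cold-treated at 4 °C, given 6 hours of light, and left for 3 days at 21 °C. There were 4 treatments with 3 biological replicates each: a control with no addition, 0.2 µM sulfamethoxazole (SMX), 10 mM sucrose, and 10 mM sucrose together with 0.2 µM SMX. SMX is a sulfonamide that blocks dihydropteroate synthase, an enzyme of folate synthesis. Whole seedlings combine cotyledon, stem and root, so fewer plastids or green cells and less plastid RNA per cell cannot be told apart.

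Plastids hold a bacterial-type RNA polymerase descended from that of their cyanobacterial ancestor. The alpha subunit, encoded by rpoA, starts the assembly of the core enzyme, the beta subunit, encoded by rpoB, and the beta′ subunit, encoded by rpoC1, form the catalytic centre, and the beta″ subunit, encoded by rpoC2, is the part that is split off in plants and cyanobacteria. The core needs nuclear-encoded sigma factors to find promoters and transcribes most photosynthesis genes of the plastid genome. The genes rpoB, rpoC1 and rpoC2 lie next to each other and are transcribed together from a promoter read by a phage-type polymerase encoded in the nucleus, whereas rpoA lies at the end of a long cluster of ribosomal protein genes. Plastid messenger RNAs mostly lack the long poly(A) tails of nuclear messengers, and the one-cycle labelling named in the labels' protocols starts from an oligo(dT) primer.

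The deposited values were log2 expression values with a common lowest value of 2.12 on every array, and the median of all probe sets lay between 5.63 and 5.84 per array. The labelling controls split the arrays by sucrose. The spike score, the mean log2 difference between the 3′ and 5′ probe sets of the added bacterial transcripts dap, lys and phe, ranged from 3.95 to 7.45 on the 6 arrays without sucrose and from 0.72 to 1.58 on the 6 arrays with it. The same difference for actin ranged from 3.49 to 7.99 and from 0.951 to 1.97. Differences between arrays with and without sucrose thus cannot be told apart from differences in labelling, since neither score overlapped. The part of labelling in each was not tested directly. Changes in a fit with a score are given for the members in some contrasts, and for rpl36, rpl14, rpl22, petD, QED1, EXPA7 and EXPA18. For the plastid genes as a set the number called with a score is given. Sucrose changes of the other genes named below are given without a score. The labelled tissue could be checked on few genes. LHCB4.1, a light-harvesting protein gene of green tissue, was between 10.8 and 12.3 on all 12 arrays, LHCB4.2 between 8.44 and 10.4, and PORB, a chlorophyll synthesis gene, between 11.8 and 13.0. These were 2 of 21 green tissue genes and 1 of 9 chlorophyll genes, while 0 of 7 dry seed genes could be matched to a probe set.

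Of the 4 subunits, the transcript of rpoA was the only one to pass the test in any comparison. It was lower with sucrose plus SMX than with SMX alone, a call that ended with either labelling score in the fit. The other 3 passed in none of the 8 contrasts (limma), and 0 of them had an unadjusted p under 0.05 in any. Of 69 plastid probe sets, members included, 40 had such a limma p for sucrose averaged over SMX levels. For sucrose plus SMX against SMX alone 32 had it, and in the SMX contrasts and the interaction between 0 and 2. The rpoA value in the control was 13.30, 13.62 and 13.54 in replicates 1 to 3, with a mean of 13.49 ± 0.17 (SD, n = 3). With SMX alone it was 14.01, 13.82 and 14.11, a mean of 13.98 ± 0.15 (SD, n = 3). With sucrose alone it was 13.33, 13.02 and 13.22, a mean of 13.19 ± 0.16 (SD, n = 3), and with both it was 12.97, 12.70 and 13.40, a mean of 13.02 ± 0.35 (SD, n = 3). The 3 SMX arrays were thus the highest of all 12. Sucrose plus SMX replicate 3 was the high array of its group and lay between the lowest and the middle control array.

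**Figure D1:**
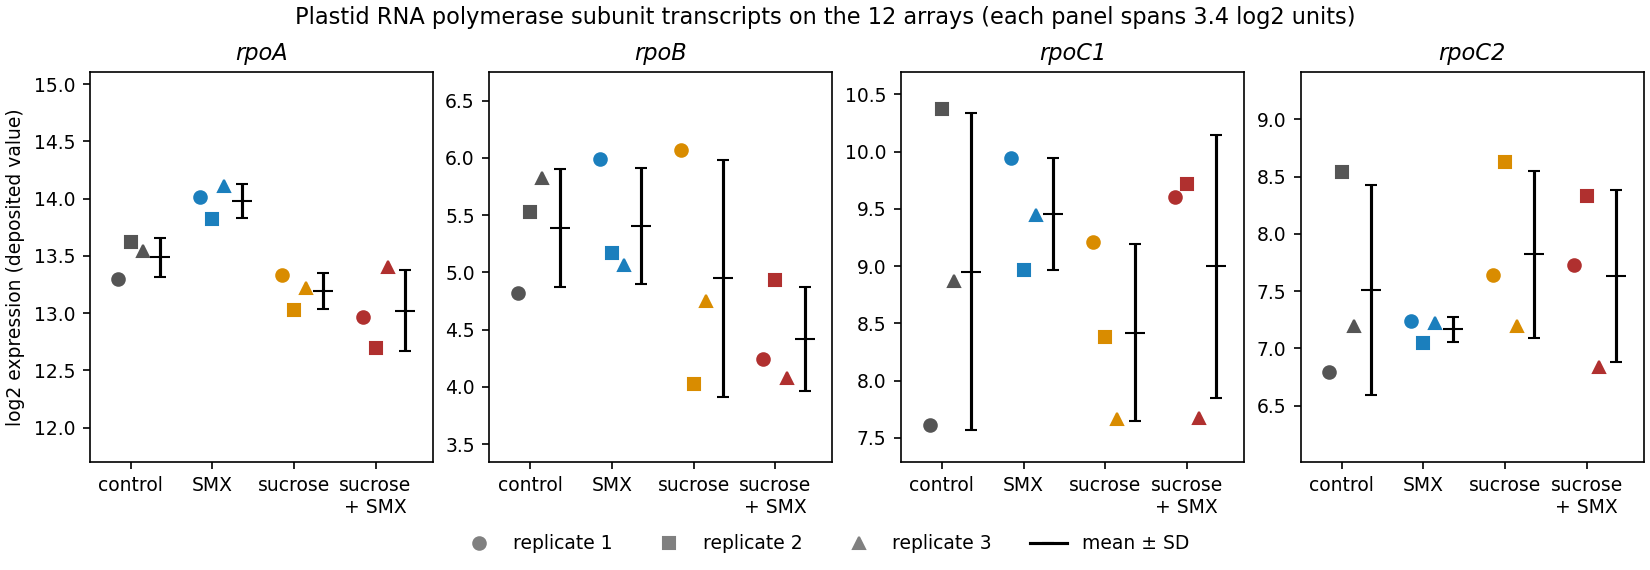
Deposited log2 expression of rpoA, rpoB, rpoC1 and rpoC2 on each of the 12 arrays, with treatment on the horizontal axis, marker shape for replicate number, and bars for the mean ± SD of 3 arrays. Each panel spans the same number of log2 units. The SMX arrays of rpoA, from 13.82 to 14.11, lie above every other array, while rpoC1 ranges from 7.61 to 10.38 within the control alone.

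In sucrose plus SMX compared with SMX alone rpoA differed by −0.96 on the log2 scale (SE 0.176, adjusted p = 0.00369 by limma), so that the transcript stood at 51.5% of its level with SMX alone. All 3 arrays with both additions lay below the 3 with SMX alone, as was the case for 23% of all probe sets. By adjusted p, 1 of the 4 members was called against 32.5% of all probe sets, 16.2% in the same direction. Averaged over both SMX levels, sucrose gave −0.63 (SE 0.125, limma, adjusted p = 0.00364), with 40.7% of all probe sets called and 20.6% called lower. The F test over the 4 treatments gave an adjusted p = 0.0121 for rpoA (limma), with 31% of all probe sets called. Adding the spike score to the fit gave −0.76 (SE 0.406, adjusted p = 0.426 by limma) in the presence of SMX and −0.45 (SE 0.36, adjusted p = 0.665) for the average. Adding the actin score gave −0.78 (SE 0.383, adjusted p = 0.397 by limma) in the former case, and −0.46 (SE 0.331, adjusted p = 0.595) in the latter. Both calls ended and the sign held. Neither score overlapped between arrays with and without sucrose, so these fits cannot separate sucrose from labelling, and the SE rose in them. In the presence of SMX 0.607% and 1.34% of all probe sets were called in these fits. Within the 6 arrays with sucrose, rpoA and the spike score had r = 0.692 (exact permutation p = 0.125) and rho = 0.543 (exact permutation p = 0.297). Within the 6 without it they had r = 0.275 (exact permutation p = 0.581) and rho = 0.257 (exact permutation p = 0.658), with adjusted p = 0.863 for both r over 16 such relations, and leaving out the 2 arrays with the most extreme scores gave r = 0.111 and −0.352.

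Without SMX the sucrose difference of rpoA was −0.30 (SE 0.176, 95% interval −0.70 to 0.11, limma, adjusted p = 0.284), which did not pass the test. The background was 23.5% of probe sets called. It was −0.13 (SE 0.36) when the spike score was included and −0.15 (SE 0.328) when the actin score was. SMX alone against the control gave 0.49 (SE 0.176, 95% interval 0.090 to 0.89). Its unadjusted p was 0.022, but the adjusted p was 0.694 (limma), and only 0.0835% of all probe sets were called in that comparison. The SMX and control arrays of rpoA did not overlap, and the same held, with SMX higher, for 4.1% of all probe sets. With sucrose present the SMX difference was −0.17 (SE 0.176, 95% interval −0.57 to 0.23, limma, adjusted p = 1), where 0.189% of all probe sets were called. The difference between the 2 SMX differences, the interaction, was −0.66 (SE 0.25, unadjusted p = 0.0276, adjusted p = 0.718 by limma) and did not pass, so the response of rpoA to sucrose was not shown to differ with and without SMX. The background of the interaction was 0.0703%. Sucrose plus SMX against the control gave −0.47 (SE 0.176, limma, adjusted p = 0.0861), with 27.2% called. It passed without sucrose plus SMX replicate 3 (−0.65, adjusted p = 0.0175, 20.8% called) and after quantile normalization (−0.59, adjusted p = 0.0299, 27.9% called). Neither of these held a labelling score. With all arrays as deposited, including the spike score gave −0.30 (SE 0.357, limma, adjusted p = 0.836) and including the actin score −0.31 (SE 0.346, adjusted p = 0.848). SMX averaged over both sucrose levels gave 0.16 (SE 0.125, adjusted p = 0.938, limma), with 0.0923% called.

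**Figure D2:**
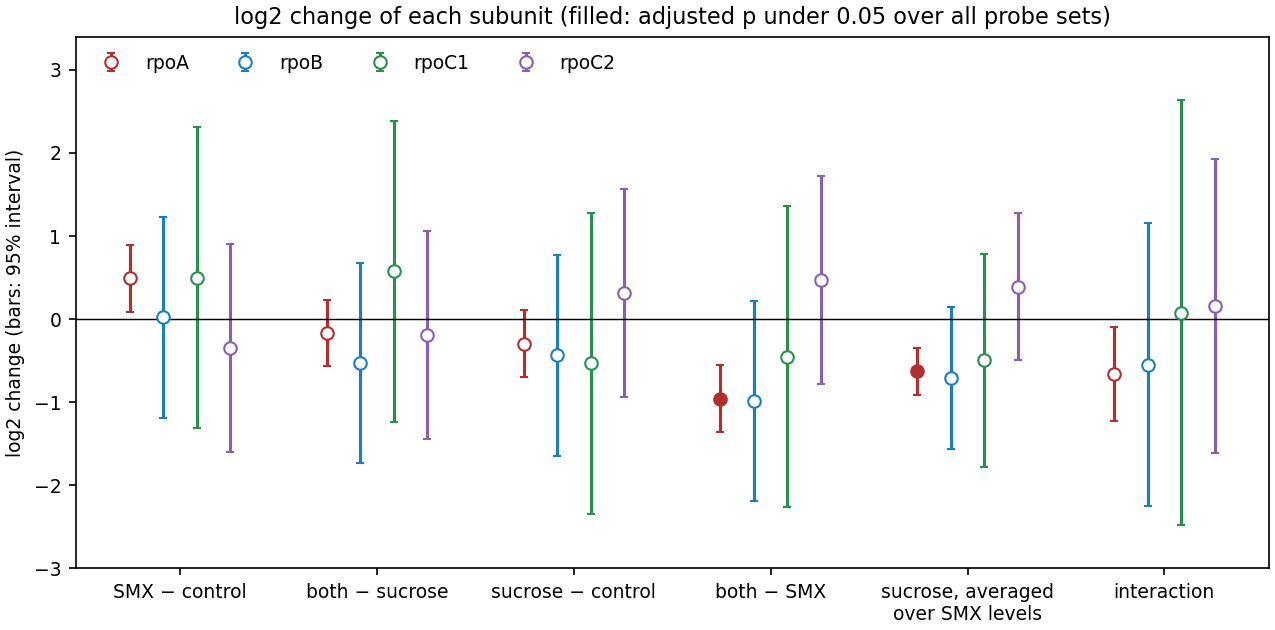
Log2 change of each subunit transcript in 6 contrasts, with 95% intervals from the limma fit of all 12 arrays and filled points for an adjusted p under 0.05. The 2 filled points are those of rpoA, at −0.96 and −0.63, and the intervals of rpoC1 are the widest of the 4 in every contrast shown.

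The transcript of rpoB, the beta subunit that carries much of the active site, lay closer to the lowest value of the arrays. In the control it was 4.82, 5.53 and 5.82, a mean of 5.39 ± 0.52 (SD, n = 3), and with SMX alone 5.99, 5.17 and 5.06, a mean of 5.41 ± 0.51 (SD, n = 3). With sucrose alone it was 6.07, 4.03 and 4.75, a mean of 4.95 ± 1.04 (SD, n = 3). With both it was 4.25, 4.93 and 4.08, a mean of 4.42 ± 0.45 (SD, n = 3). Sucrose replicate 1 held the highest rpoB value of all 12 arrays and sucrose replicate 2 the lowest, so this 1 group spanned the whole range. All 3 arrays with both additions lay below all 3 with SMX alone, as 23% of all probe sets did, yet the change of −0.99 (SE 0.529, limma, adjusted p = 0.203) did not pass the test. Sucrose averaged over both SMX levels gave −0.71 (SE 0.374, 95% interval −1.57 to 0.14, limma, adjusted p = 0.172). Sucrose replicate 1 decided this result, since without it the change was −0.99 (SE 0.292, limma, adjusted p = 0.0289, with 39.7% of all probe sets called) and without sucrose replicate 2 it was −0.48 (adjusted p = 0.333). SMX alone gave 0.019 (SE 0.529, 95% interval −1.19 to 1.23, limma, adjusted p = 1). With the spike score in the fit the averaged sucrose change was −0.55 (SE 1.1) and with the actin score −0.20 (SE 0.99).

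The transcript of rpoC1, the beta′ subunit, varied more between replicates than between treatments. It was 7.61, 10.38 and 8.87 in the control, a mean of 8.95 ± 1.38 (SD, n = 3), and 9.95, 8.97 and 9.45 with SMX alone, a mean of 9.45 ± 0.49 (SD, n = 3). With sucrose alone it was 9.21, 8.38 and 7.67, a mean of 8.42 ± 0.77 (SD, n = 3). With both it was 9.60, 9.72 and 7.68, a mean of 9.0 ± 1.15 (SD, n = 3). The control held both the lowest and the highest value of the 12. Sucrose alone gave −0.53 (SE 0.795, 95% interval −2.35 to 1.28, limma, adjusted p = 0.739), and SMX alone 0.50 (SE 0.795, 95% interval −1.31 to 2.31, adjusted p = 0.974). A change of 1 log2 unit in either direction lies inside both intervals. Single control arrays turned the sign of each: without control replicate 1 the values were −1.20 for sucrose and −0.17 for SMX, and without control replicate 2 they were 0.18 and 1.21, none of them called. Averaged over SMX levels the sucrose change was −0.49 (SE 0.562), against −0.49 (SE 1.65) with the spike score and 1.33 (SE 1.34) with the actin score as a covariate, so the actin score turned its sign.

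The transcript of rpoC2, the beta″ subunit, was the only one whose mean was higher with sucrose at both SMX levels, by differences within the replicate spread. In the control it was 6.80, 8.54 and 7.20, a mean of 7.51 ± 0.91 (SD, n = 3). With SMX alone it was 7.24, 7.04 and 7.22, a mean of 7.17 ± 0.11 (SD, n = 3). With sucrose alone it was 7.64, 8.62 and 7.20, a mean of 7.82 ± 0.73 (SD, n = 3), and with both 7.73, 8.33 and 6.84, a mean of 7.63 ± 0.75 (SD, n = 3). The groups overlapped in every comparison, and replicate 2 was the high array in 3 of them. The averaged sucrose change was 0.39 (SE 0.389, 95% interval −0.50 to 1.27, limma, adjusted p = 0.471). It was 0.12 (SE 1.14) with the spike score and 1.51 (SE 0.952) with the actin score. SMX alone gave −0.34 (SE 0.55, 95% interval −1.60 to 0.91, adjusted p = 0.975 by limma).

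The spread between replicates was thus smaller for rpoA than for the genes of the rpoB cluster, which also lay at lower levels. The values of rpoA ran from 12.70 to 14.11, and those of the cluster from 4.03 to 10.38. The pooled SD within treatments was 0.223 for rpoA, 0.671 for rpoB, 1.01 for rpoC1 and 0.697 for rpoC2. Among the 12799 probe sets with a mean of at least 5 the median was 0.288, and 97% of them had a lower SD than rpoB, 97.4% a lower SD than rpoC2, 99.6% a lower SD than rpoC1 and 26.1% a lower SD than rpoA. These probe sets were not matched for level, and the part of level in the spread was not tested. A wide spread was common among plastid genes, whose 69 probe sets had a median SD of 0.748. At high levels it differed between them. The SD of rps3 within treatments, at means from 12.65 to 13.01, ran from 0.066 to 0.15. That of atpB, at means from 12.51 to 13.86, ran from 0.27 to 1.24.

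Arrays differed in the level of plastid transcripts as a whole, and rpoC1 and rpoC2 followed it. The median of the other 65 plastid probe sets was 8.81, 10.05 and 9.05 on the control arrays, 9.70, 9.50 and 9.58 with SMX, 9.77, 9.61 and 9.24 with sucrose, and 9.52, 9.78 and 8.86 with both. Control replicate 2 was the highest and control replicate 1 the lowest. Over the 12 arrays rpoC1 and this median had r = 0.841 (permutation p = 0.00142, adjusted over 4 relations 0.00364) and rho = 0.825 (permutation p = 0.00176), and r = 0.702 without the 2 arrays whose median was most extreme. For rpoC2 the values were r = 0.743 (permutation p = 0.00182, adjusted 0.00364), rho = 0.853 (permutation p = 0.00092) and r = 0.626. For rpoB r was 0.357 (permutation p = 0.256) with rho = 0.392, and for rpoA r was 0.0608 (permutation p = 0.849) with rho = 0. Within the 6 arrays without sucrose r was 0.945 for rpoC1 (exact permutation p = 0.00278, adjusted over 8 relations 0.0222), with rho = 1 (exact permutation p = 0.00278), and 0.79 without the 2 most extreme arrays. For rpoC2 it was 0.778 (exact permutation p = 0.0361, adjusted 0.117), with rho = 0.943 (exact permutation p = 0.0167), and it rested on 2 arrays, without which r was 0.0776. Within the 6 arrays with sucrose r was 0.801 for rpoC1 (exact permutation p = 0.0528, rho = 0.771) and 0.798 for rpoC2 (exact permutation p = 0.0583, rho = 0.714). Without the 2 most extreme arrays these were 0.178 and 0.025. All points come from the same arrays as the median.

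**Figure D3:**
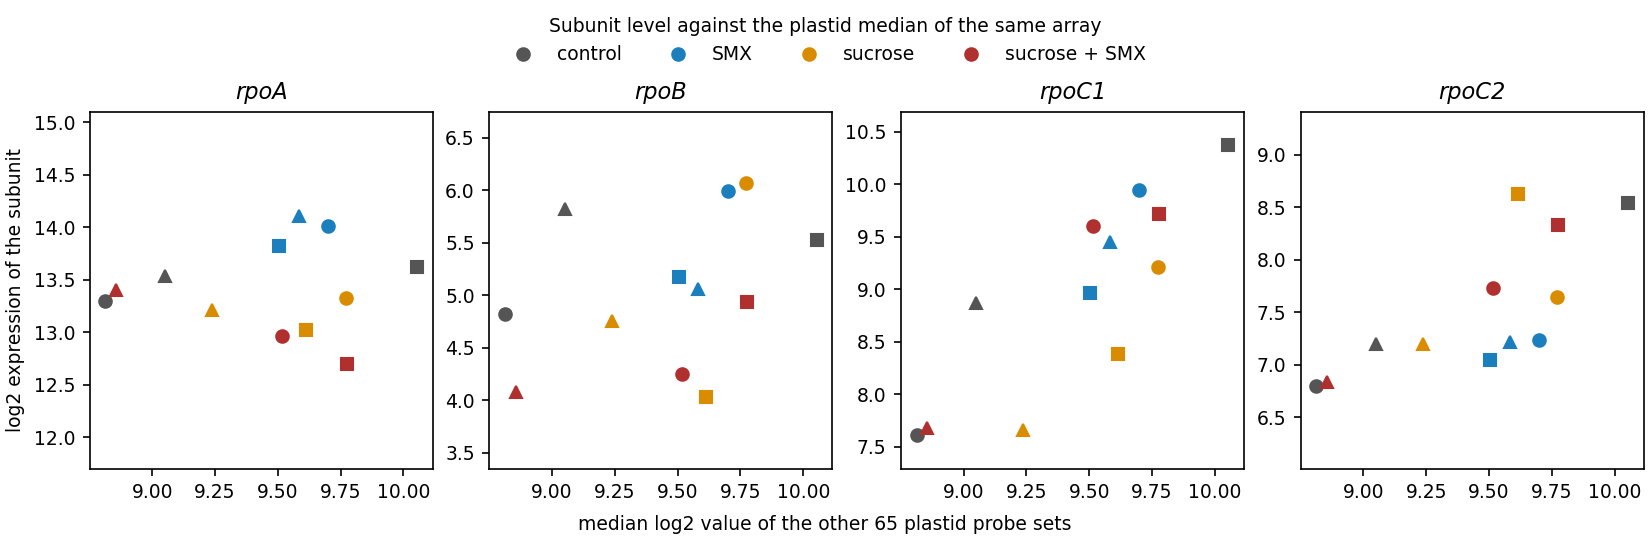
Log2 expression of each subunit against the median log2 value of the other 65 plastid probe sets of the same array, with colours for the 4 treatments and circles, squares and triangles for replicates 1, 2 and 3. The points of rpoC1 and rpoC2 rise from left to right (r = 0.841 and 0.743), and those of rpoA form no slope (r = 0.0608).

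With the plastid median as a covariate, an alternative added after the values were seen, the SE of rpoC1 for sucrose alone fell to 0.267. Its change was then −1.06 (limma, adjusted p = 0.0268), with 23.4% of all probe sets called. The changes of rpoC1 for sucrose in the presence of SMX, 0.018 (SE 0.266, adjusted p = 1), and averaged over SMX levels, −0.52 (SE 0.184, adjusted p = 0.0569), did not pass in that limma fit. For rpoC2 the same fit gave 0.77 (SE 0.276, limma, adjusted p = 0.0733) for sucrose in the presence of SMX and −0.027 (SE 0.278, adjusted p = 1) without it. Both calls of rpoA held in that fit, at −0.97 (SE 0.19, adjusted p = 0.00725 by limma) in the presence of SMX, and at −0.63 (SE 0.131, adjusted p = 0.0065) for the average. Over the 12 arrays rpoA hardly followed the plastid median (r = 0.0608), so this covariate could change little for it. That fit held no labelling score.

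The 3 genes of the rpoB cluster were not shown to move together across arrays. Over the 12 arrays rpoC1 and rpoC2 had r = 0.517 (permutation p = 0.0838, adjusted over 6 pairs 0.191) and rho = 0.629 (permutation p = 0.0319, adjusted 0.176), with r = 0.379 when the 2 most extreme arrays were left out. For rpoB and rpoC1 r was 0.507 (permutation p = 0.0948) with rho = 0.49, and for rpoB and rpoC2 −0.0862 (permutation p = 0.781). The largest r of rpoA was that with rpoB, 0.504 (permutation p = 0.0955, adjusted 0.191). Within the 6 arrays without sucrose rpoC1 and rpoC2 had r = 0.771 (exact permutation p = 0.0111, adjusted over 12 relations 0.133) and rho = 0.943 (exact permutation p = 0.0167, adjusted 0.2). Within the 6 with it r was 0.56 (exact permutation p = 0.247), and −0.537 without the 2 most extreme arrays.

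Downstream of rpoC2 lie rps2, a gene of the small ribosomal subunit, and then the ATP synthase genes atpI, atpH, atpF and atpA. None of these 5 passed the test for sucrose averaged over SMX levels. The probe set of rps2, the nearest, gave 0.22 (SE 0.482), next to 0.39 for rpoC2. That of atpI, the membrane subunit a of the ATP synthase, gave −0.88 (SE 0.329, limma, adjusted p = 0.0615), and those of atpH, atpF and atpA gave −0.39, −0.49 and 0.20. Changes along the cluster thus had both signs, and each had an SE of 0.329 or more.

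The neighbours of rpoA split. The cluster that ends with rpoA encodes ribosomal proteins, of which rpl36, rpl14, rpl16, rps3, rpl22 and rps19 had a probe set of their own. The level of rpl36, its nearest measured neighbour in the cluster, was 11.17, 10.78 and 9.55 in the control, 10.70, 9.72 and 9.87 with SMX, 11.92, 12.40 and 12.97 with sucrose, and 12.34, 12.51 and 12.95 with both. All 6 arrays with sucrose lay above all 6 without, as 12.8% of all probe sets did. Sucrose averaged over SMX levels gave rpl36 a rise of 2.22 (SE 0.325, limma, adjusted p = 0.000738), rpl14 a rise of 1.04 (SE 0.213, adjusted p = 0.00413) and rpl22 a rise of 0.78 (SE 0.222, adjusted p = 0.0203), opposite in sign to the −0.63 of rpoA. The probe sets of rpl16, rps3 and rps19 gave −0.13, −0.14 and −0.16 and did not pass. On the other side of rpoA, petD, which encodes a subunit of the cytochrome b6f complex, fell by 1.93 (SE 0.477, limma, adjusted p = 0.0108). In the fit with the spike score rpl36 was 0.35 (SE 0.623), rpl14 1.67 (SE 0.576), rpl22 0.60 (SE 0.648) and petD −0.57 (SE 1.3), none of them called by limma (adjusted p from 0.228 to 0.975). With the actin score they were 0.83 (SE 0.688), 1.74 (SE 0.505), 0.80 (SE 0.599) and −0.36 (SE 1.13), again without a call (adjusted p from 0.148 to 1).

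Other genes of the plastid genome were called in both directions with sucrose, at the share found over all probe sets. Of the 65 plastid probe sets other than the 4 members, 9 rose, 18 fell and 38 did not pass for sucrose averaged over SMX levels (limma, adjusted p under 0.05), and their median change was −0.49. The share called was 41.5%, against 40.7% of all probe sets. The 4 members had 0 up, 1 down and a median of −0.56, and all probe sets tested had a median of −0.0095. Photosynthesis genes, the main clients of the polymerase, had 4 up and 8 down of 27 with a median of −0.60. Their 4 smallest F-test p belonged to psbE, psbF and psbJ, which encode small photosystem II subunits and rose by 2.23, 1.66 and 1.32, and to psbZ, which fell by 1.29. Of 10 NDH genes, whose products form the plastid complex for cyclic electron flow, 4 fell and 0 rose, with a median of −1.55, among them ndhC (−0.67), ndhJ (−1.78), ndhF (−1.86) and ndhG (−1.39). Of 15 ribosomal protein genes 4 rose and 4 fell, with rpl32 at −0.54 beside those named above. Of 6 ATP synthase genes atpB rose by 1.09 and atpE fell by 0.45. Of 7 other genes only ccsA, which serves cytochrome c assembly, passed (−0.97), while ycf4, ycf3 and matK gave 1.41, −0.64 and −1.02 without passing. After adjustment for the spike or the actin score 0 of the 69 plastid probe sets were called by limma in this contrast, against 28 without a score. Of all probe sets, 0.55% and 1.65% were then called.

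**Figure D4:**
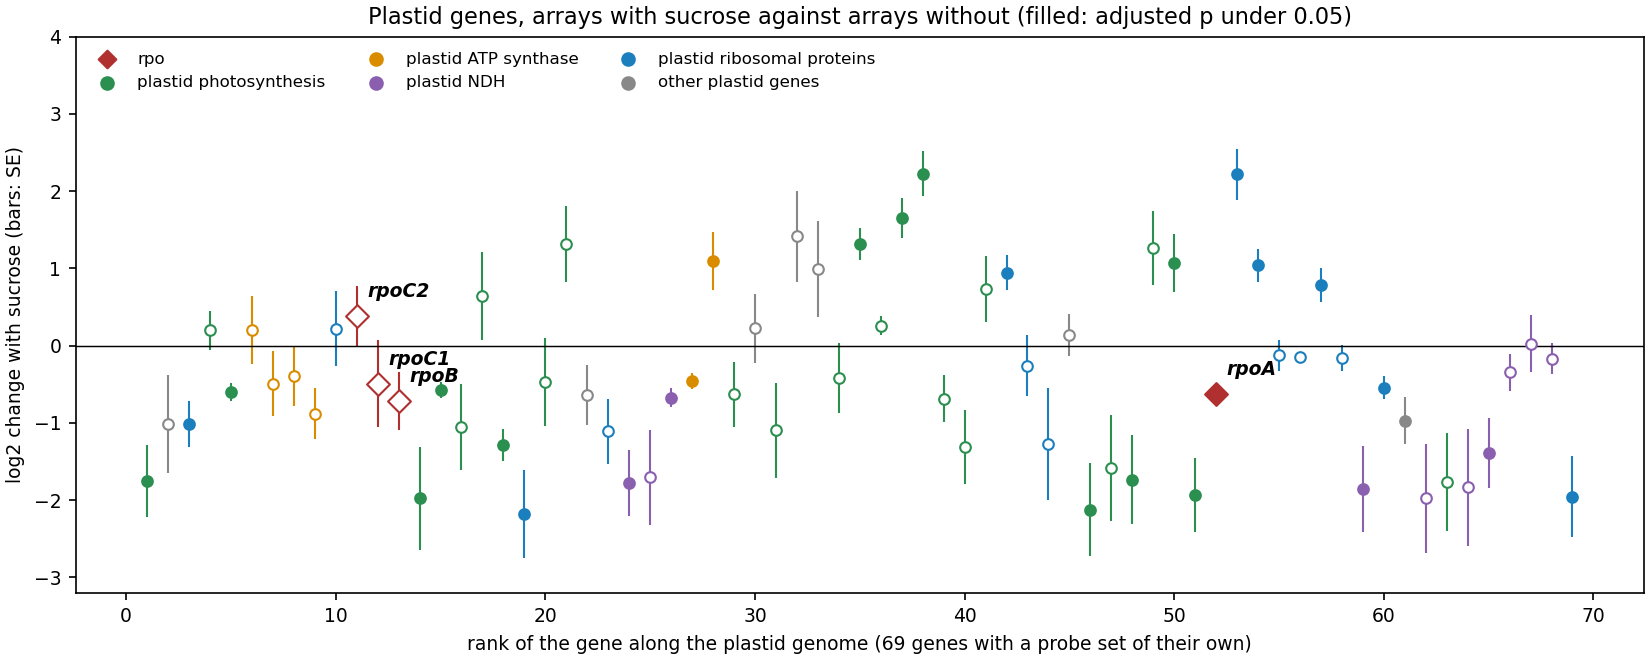
Log2 change of 69 plastid probe sets between arrays with and without sucrose, averaged over SMX levels, in the order of the genes along the plastid genome; bars are SE and filled points have an adjusted p under 0.05. The 4 polymerase subunits, drawn as diamonds, run from −0.71 to 0.39, inside the range of the other plastid genes from −2.18 to 2.23, and rpoA is the only filled diamond.

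For SMX alone, 0 of the 69 plastid probe sets were called by limma and 2 had an unadjusted p under 0.05. By that p rpoA, at 0.022 (limma), ranked 711 of all 22746 probe sets. Of the 65 plastid probe sets other than the members, 59 had a change above 0, with a median of 0.51. The members gave 3 changes above 0 of 4 with a median of 0.26. Of all 22746 probe sets 9897 had a change above 0, and their median was 0. Between 17.5% and 21.4% of them lay at the lowest value on each array. A probe set there in both groups has a change of exactly 0 and counts as not above 0, which lowers that share. The counts of plastid and member changes above 0 moved with control replicate 1, which had the lowest plastid median. Without it 42 of the 65 changes were above 0, with a median of 0.16, and of the members 1 of 4 was, with a median of −0.22. Of all 22746 probe sets 10344 were above 0 without that array. The change with SMX was then 0.40 for rpoA (SE 0.195, limma, adjusted p = 0.632), −0.27 for rpoB, −0.17 for rpoC1 and −0.70 for rpoC2. The lists were too sparsely matched to say how nuclear partners of the enzyme behaved. Of 6 sigma factors, 13 polymerase-associated proteins, 9 genes of plastid DNA maintenance and 5 of plastid RNA decay, 0 could be matched to a probe set of 1 gene, and 0 mitochondrial genes were matched through the reference table. Of the 3 phage-type polymerases RPOTmp alone was matched, and it was at 2.29, close to the lowest value, in 9 of 12 arrays. Of 4 factors that edit rpo transcripts, among others, 3 were matched. QED1 fell with sucrose averaged over SMX levels by 1.78 (SE 0.299, limma, adjusted p = 0.00153), where 20.6% of all probe sets were called lower. Its values lay between 5.33 and 5.85 on all 6 arrays with sucrose and between 6.35 and 8.20 on all 6 without. In the fit with the spike score its change was 0.28 (SE 0.362, limma, adjusted p = 0.832) and in that with the actin score −0.19 (SE 0.51, adjusted p = 0.999), so the call ended with both and the sign differed between them. YS1 and CRR22 lay near the lowest value, with changes of −0.14 and −0.16 that did not pass. LHCB4.1, LHCB4.2 and PORB gave −0.49, −0.074 and −0.38 and did not pass either. The root markers EXPA7 and EXPA18, 2 of 11 on their list, rose by 3.49 and 4.13 (limma, adjusted p = 1.48e-05 and 7.05e-06), from 3.01 to 5.46 without sucrose to 5.68 to 9.66 with it over both genes. Of all probe sets, 12.8% had all 6 arrays with sucrose above all 6 without. Including the spike score gave 3.52 for EXPA7 (limma, adjusted p = 0.0675), no longer called, and 2.89 for EXPA18 (adjusted p = 0.0363). Including the actin score gave 3.64 (limma, adjusted p = 0.0318) and 3.22 (adjusted p = 0.0217), both called. The part of root growth in the plastid values was not tested.

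The probe sets whose pattern was most like the mean of the 4 members over the 12 arrays, each centred on its own mean, were plastid genes in 5 of 6 cases. Among 6875 probe sets of 1 gene with a mean of at least 5, the 6 highest Pearson r were those of psaI (0.92), rpl20 (0.916), matK (0.911), ycf3 (0.908), ccsA (0.891) and nad4 (0.885), whose locus could not be matched to the reference table. When deviations from the treatment means were compared, the 6 highest were AT3G53190 (0.969), ccsA (0.951), ccb452 (0.945), psaI (0.932), UBC29 (0.931) and accD (0.924). Of these AT3G53190 and UBC29 are nuclear genes, and ccb452 could not be matched to the reference table either, so the likeness was not confined to plastid genes. The mean of the members is weighted towards rpoC1, which varied most, and all values share the arrays.

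**Figure D5:**
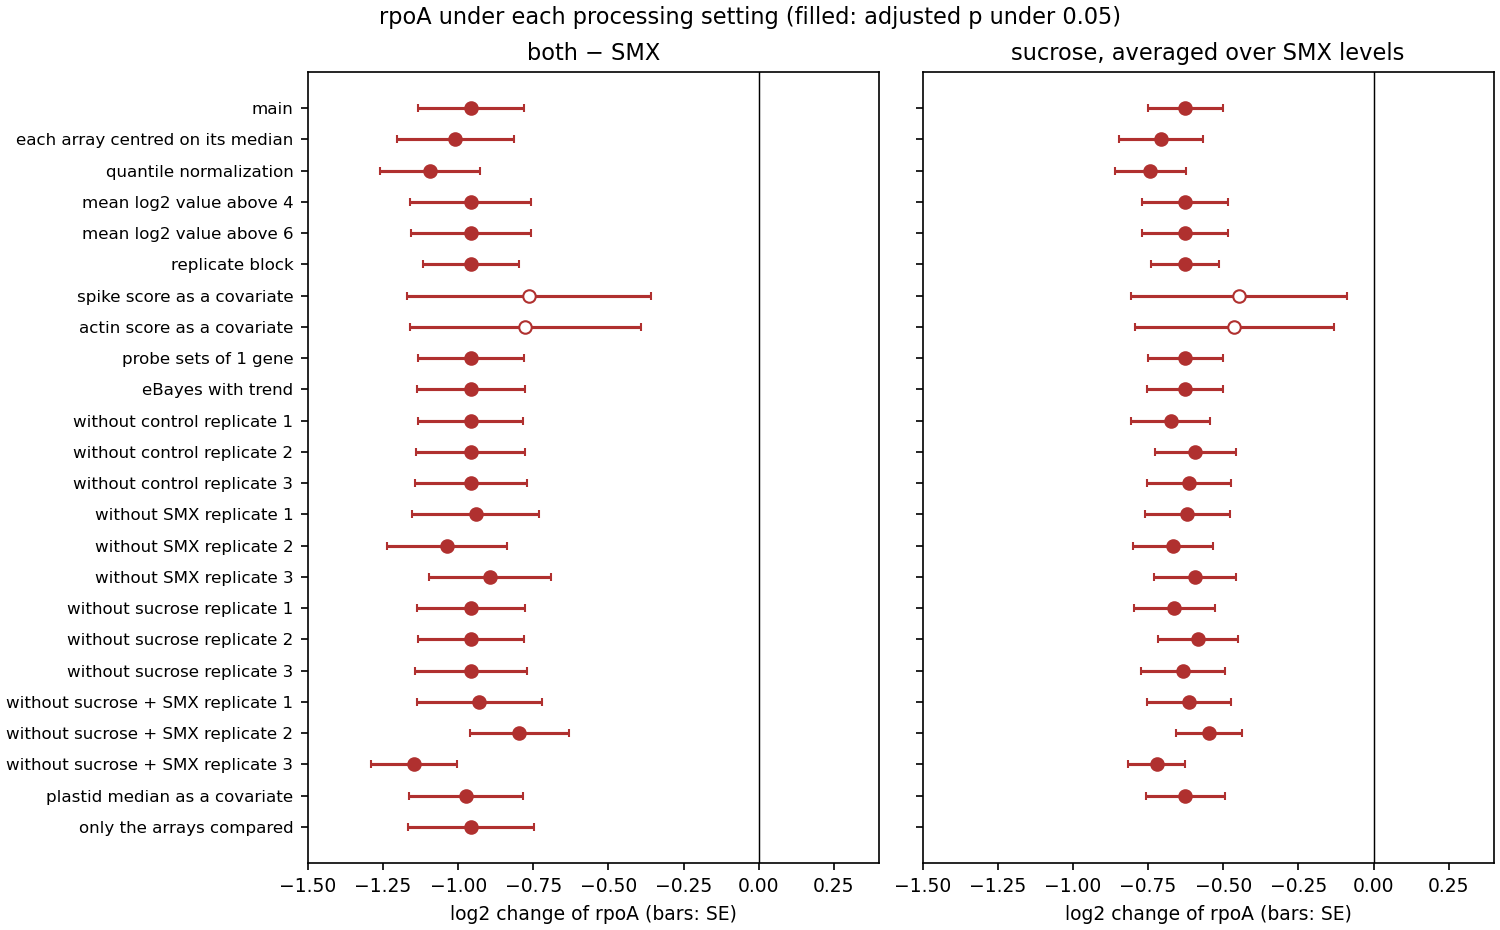
Log2 change of rpoA, with SE, under the main setting and every alternative that could be run for it, for sucrose plus SMX against SMX alone and for sucrose averaged over SMX levels; filled points have an adjusted p under 0.05. All points lie below 0, from −1.15 to −0.76 and from −0.74 to −0.45, and the open points are those with a labelling score as a covariate.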

How the data were processed

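The authors deposited a table of log2 expression with 12 arrays and 22810 probe sets. Per the submitters' processing notes GCRMA and limma were used, with neither version nor order of steps given. The log base is not given in the sources used here and was inferred: the values run from 2.12 to 15.7. The 64 Affymetrix control probe sets were left out of the tests. The platform's annotation gave 1 gene to 13513 of the 22746 others, several to 503 and no gene to 8730, and 13436 matched TAIR10.1 genes, used for names and gene order alone. All 12 arrays entered 1 fit (lmFit and eBayes, limma 3.58.1, R 4.3.3) with 4 treatments and no block. Calls required an adjusted p (Benjamini-Hochberg, two-sided, over all 22746) under 0.05, and the procedure was tested on simulated data. Correlations used two-sided permutation tests. The number of arrays limits the precision, and p-values measure the spread between the replicates as labelled.

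The members and gene lists were chosen with earlier results of these data known. Named were the 4 members, their measured neighbours in the plastid genome, every matched gene of lists with up to 6, the 4 smallest F-test p of larger lists, and the 6 probe sets most like the members. Of 88 list genes 9 were matched. Arrays with the same replicate number were not paired in the main fit, although 6 of 18 same-numbered pairs correlated above 0.1 in their deviations from the treatment means. The median correlation was 0.050 for same-numbered pairs and −0.034 for the 36 others, so a shared replicate effect is not excluded. Tried besides were other scalings, filters on low values, a replicate block, labelling scores, fewer arrays or probe sets, a variance trend, and, added after the values were seen, the plastid median.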

Additional observations from a re-analysis of the deposited data

How the results depend on the processing

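The number of members called went from 1 to 0 with the spike or the actin score as a covariate for sucrose plus SMX against SMX alone, for sucrose averaged over SMX levels and for the F test; the scores raised the SE of rpoA in the first of these from 0.176 to 0.406 and 0.383. For sucrose plus SMX against the control it went from 0 to 1 after quantile normalization, and ranged from 0 to 1 when single arrays were left out. For sucrose averaged over SMX levels it ranged from 1 to 2 when single arrays were left out. For sucrose alone it went from 0 to 1 with the plastid median as a covariate, an alternative chosen after seeing the data. The cause was not tested. Of 384 changes with 1 array left out, 382 kept their side of the threshold, and 28, none called, had another sign. Of 332 under the other alternatives 326 did so, and 16, none called, had another sign. With the replicate block the members called were 1 for sucrose plus SMX against SMX alone and 1 for sucrose averaged over SMX levels, as without it, and 8 of 12 arrays correlated best with an array of their own number. Over all probe sets, calls for sucrose averaged over SMX levels went from 9261 to 125 (spike) and 375 (actin), for sucrose plus SMX against SMX alone from 7384 to 138 and 305, for sucrose plus SMX against the control from 6180 to 287 and 441, for sucrose alone from 5336 to 65 and 251, and for the F test from 7043 to 109 and 165. For SMX alone they went from 19 to 0 at a mean above 4 or above 6 and ranged from 9 to 70 with single arrays left out, and for the interaction they went from 16 to 1 with the block. The transcript of rpoB, with a mean below 6, was left out at a mean above 6. With 3 arrays per treatment the 95% interval of rpoC1 for sucrose alone, −2.35 to 1.28, limits what could be seen.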
